A study of Mus musculus with 6 samples.

Results

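The 8 genes described here are mouse regulators and an early marker of the trophoblast, with Elf5 as the gatekeeper gene of that lineage: Elf5, Tead4, Cdx2, Gata3, Tfap2c, Hand1, Ascl2 and Krt8. They were chosen by name out of 53843 genes of the annotation on chromosomes 1 to 19 and X. Each gene was followed at its annotated transcription starts, over its body and over the 20000 bp on each side. Their DNA methylation was read from 6 whole-genome bisulfite libraries, 2 each of ASCs, ESCs and EpiSCs. ASCs (advanced pluripotent stem cells) are blastocyst-derived lines that were first kept in Activin A and bFGF and then in ABCL medium, which holds Activin A, BMP4, the GSK3 inhibitor CHIR99021 and LIF. ESCs were naive embryonic stem cells in 2i/LIF, and EpiSCs were primed epiblast stem cells. All 6 libraries carry the labels wild type and strain 129S2/SvPasCrl, whereas the methods of the study derive lines from 129/sv mothers and transgenic fathers of mixed MF1, 129/sv and C57BL/6J descent and do not tie a line to a library. Sequence variants at CpG sites were not tested. The study names the cells of its bisulfite sequencing as female ASCs, ESCs and EpiSCs. The labels speak of biological replicates but do not say whether these came from separate lines or from separate cultures of a line, so p-values cover these samples only. They rest on read counts and on a spread between libraries that was moderated over all regions of a kind. Libraries of trophoblast cells were not analysed here, and bisulfite libraries hold no RNA, so neither the cell labels nor the activity of the 8 genes could be read from them.

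The first lineage decision of the mouse embryo separates the trophectoderm, which builds the placenta, from the inner cell mass. TEAD4 acts with the co-activator YAP in outer cells and switches on CDX2 and GATA3, and TFAP2C, EOMES and ELF5 then keep trophoblast stem cells in their state. Elf5 is known as the gene at which DNA methylation closes the trophoblast path: its promoter is methylated in cells of the embryonic lineage and unmethylated in trophoblast stem cells, where it takes part in a loop with CDX2 and EOMES. HAND1 and ASCL2 act later, in giant cells and in the spongiotrophoblast, and the keratin KRT8 is a cytoskeletal protein of the first epithelium. Promoters rich in CpG tend to stay free of methylation in most cells whether or not the gene is active, while CpG-poor promoters follow the methylation of the surrounding genome.

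Each read of a CpG counts as an observation, and the methylation level is the percentage of methylated observations. The libraries held 63803799 to 74925271 CpG reads, or 2.96 to 3.46 reads per CpG, so reads were summed over regions, which needed 40 or more observations in each library. The level over all CpG sites was 59.8% and 60.2% in ASCs, with 17.9% and 18.2% in ESCs and 81% and 80.2% in EpiSCs. Over all 445422 tiles of 2 kb tested, the median group mean was 69.2% for ASCs, 19.8% for ESCs and 92.1% for EpiSCs. Every comparison below therefore sits on a difference of the whole genome, and its part in the difference at a single gene was not tested. A region was called where the Benjamini-Hochberg adjusted p was under 0.05 and at least 20 percentage points separated the group means. The 3 comparisons share libraries.

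The 300 bases before 4 of the starts show how the genes differ in CpG content and in methylation. They are the main start of Elf5, the internal start of Tead4, the first start of Hand1 and the start of Cdx2. They were picked as examples and are not a full set of the patterns. Each is read 5′ to 3′ on the strand of the gene from the RefSeq copy of GRCm38, with every CpG in capitals.
Elf5, chr2:103423762-103424061, plus strand: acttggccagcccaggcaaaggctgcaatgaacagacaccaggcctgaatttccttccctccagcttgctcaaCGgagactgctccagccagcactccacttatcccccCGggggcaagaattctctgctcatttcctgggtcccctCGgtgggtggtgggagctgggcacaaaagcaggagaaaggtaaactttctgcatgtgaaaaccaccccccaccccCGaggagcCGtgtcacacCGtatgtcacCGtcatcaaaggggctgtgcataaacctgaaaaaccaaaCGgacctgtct
Tead4, chr6:128275578-128275877, minus strand: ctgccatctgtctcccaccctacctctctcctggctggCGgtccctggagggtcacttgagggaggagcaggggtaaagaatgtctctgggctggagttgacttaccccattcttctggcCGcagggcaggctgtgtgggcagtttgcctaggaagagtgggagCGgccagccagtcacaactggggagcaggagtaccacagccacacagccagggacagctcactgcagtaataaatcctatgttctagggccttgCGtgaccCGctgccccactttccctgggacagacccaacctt
Hand1, chr11:57832819-57833118, minus strand: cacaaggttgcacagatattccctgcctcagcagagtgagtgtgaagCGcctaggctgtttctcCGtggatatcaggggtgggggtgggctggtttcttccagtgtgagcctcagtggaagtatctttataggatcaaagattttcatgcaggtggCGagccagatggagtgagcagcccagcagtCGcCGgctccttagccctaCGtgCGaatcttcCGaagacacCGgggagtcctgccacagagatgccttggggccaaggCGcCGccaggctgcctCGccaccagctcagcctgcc
Cdx2, chr5:147307271-147307570, minus strand: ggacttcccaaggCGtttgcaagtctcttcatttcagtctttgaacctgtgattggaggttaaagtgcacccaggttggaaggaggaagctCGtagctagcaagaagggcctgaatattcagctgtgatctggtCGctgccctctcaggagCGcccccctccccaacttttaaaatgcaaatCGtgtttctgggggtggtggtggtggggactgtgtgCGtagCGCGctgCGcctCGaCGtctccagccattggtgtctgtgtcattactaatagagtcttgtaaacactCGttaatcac
None of the 4 stretches overlaps an annotated exon. They hold 8 CpG sites in Elf5, 5 in Tead4, 12 in Hand1 and 12 in Cdx2. Over exactly these bases the Elf5 level was 61.5% and 58.3% in ASCs, against 15.0% and 12.5% in ESCs and 100.0% and 96.3% in EpiSCs, from 8 to 40 observations a library. The Tead4 stretch was at 36.4% and 46.7% in ASCs, with 4.88% and 6.25% in ESCs and 93.3% and 100.0% in EpiSCs. In Hand1 the order was another: 20.4% and 22.1% in ASCs, against 6.06% and 3.80% in ESCs and 2.13% and 3.51% in EpiSCs. In Cdx2 no methylated observation was seen in any of the 6 libraries, and with 40 to 70 observations each a count of 0 allows a level of up to 4.29% to 7.50%. These limits, like all intervals here, cover counting error only and take observations as independent. A read can cover several neighbouring CpG sites, so the true limits are wider.

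The window from 1000 bp before to 100 bp after a start served as promoter. Of the 29 promoter windows of the 8 genes 28 were tested, and the last start of Elf5, with 7 to 16 observations, was not. In ASCs against ESCs 12 of the 28 windows were called higher and 0 lower, where 32.5% of all tested starts were called higher and 0.0% lower. In EpiSCs against ESCs 11 were higher and 0 lower, with 48.6% of all starts called higher and 0.00395% lower. In ASCs against EpiSCs 5 windows were called lower, where the share over all starts was 33.0%. In that comparison 4 windows were called higher in ASCs, 3 of Gata3 and 1 of Hand1, against 0.188% of all starts. Windows of neighbouring starts overlap and share reads, so these counts are not counts of independent sites. With 1 main start per gene (the start of the transcript with the longest coding sequence), ASCs exceeded ESCs at 2 of 8 (Elf5 and Krt8), lay below EpiSCs at 1 (Elf5), and EpiSCs exceeded ESCs at 3 (Elf5, Tead4 and Krt8), all counted as called. The shares over all 14377 main starts were 17.8%, 24.6% and 37.1%. None of the 8 was called higher in ASCs than in EpiSCs, as were 0.174% of all main starts.

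**Figure D1:**
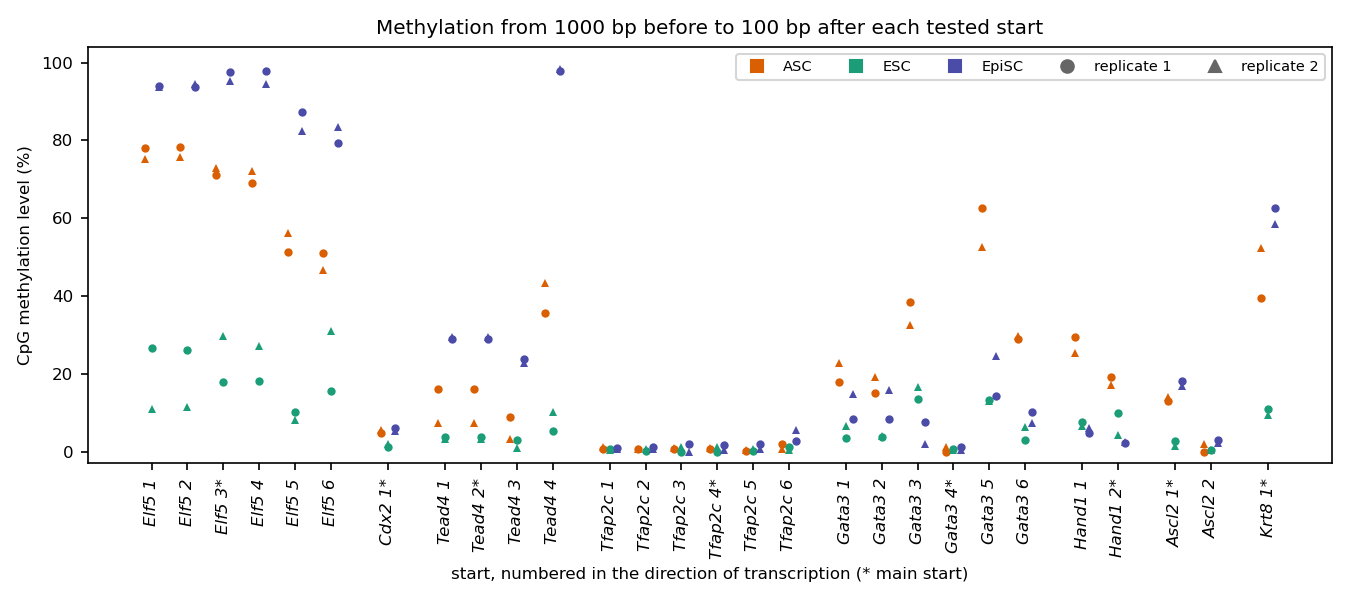
The methylation level (%) of each tested promoter window is plotted for each library, with the starts of each gene numbered in the direction of transcription and the main start marked by an asterisk. Elf5 is ordered ESC, ASC, EpiSC at every start, while Cdx2, Tfap2c and the main start of Gata3 lie near 0 in all 6 libraries and the other Gata3 and the Hand1 starts have the highest group mean in ASCs, with an overlap of ASCs and EpiSCs at the Gata3 start 9890002.

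The same 8 genes were then covered with 2-kb tiles, from 20000 bp before to 20000 bp after each gene, and 224 of 258 tiles were tested. ASCs were higher than ESCs in 181 tiles and lower in 0, where 91.1% of all tiles were called higher and 0.0% lower. EpiSCs were higher than ESCs in 191 tiles and lower in 0, where 96.5% of all tiles were higher and 0.000898% lower. ASCs were lower than EpiSCs in 112 tiles, with 53.5% over all tiles, and higher in 10, with 0.1% over all tiles. The 10 tiles lie at 3 genes only, with 6 at Gata3, 3 at Cdx2 and 1 at Hand1. Both ASC libraries lay between the ESC and the EpiSC libraries in 185 of the 224 tiles and in 93.8% of all tiles. The members with the smallest share of tiles in that order were Cdx2 with 11 of 21, Gata3 with 19 of 34 and Hand1 with 14 of 20, while Elf5 had 32 of 33 and Tead4 52 of 54. Of the gene bodies 5 of 8 were higher in ASCs than in ESCs (86.5% of all genes tested), 3 were lower in ASCs than in EpiSCs (53.5%), 0 were higher in that comparison (0.0581%) and 4 were higher in EpiSCs than in ESCs (94.6%).

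Within each gene, the widest tile difference between ASCs and ESCs ran from 54.0 points at Cdx2 to 63.8 points at Tfap2c, and that between EpiSCs and ESCs from 81.5 points at Krt8 to 93.5 points at Gata3.

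**Figure D2:**
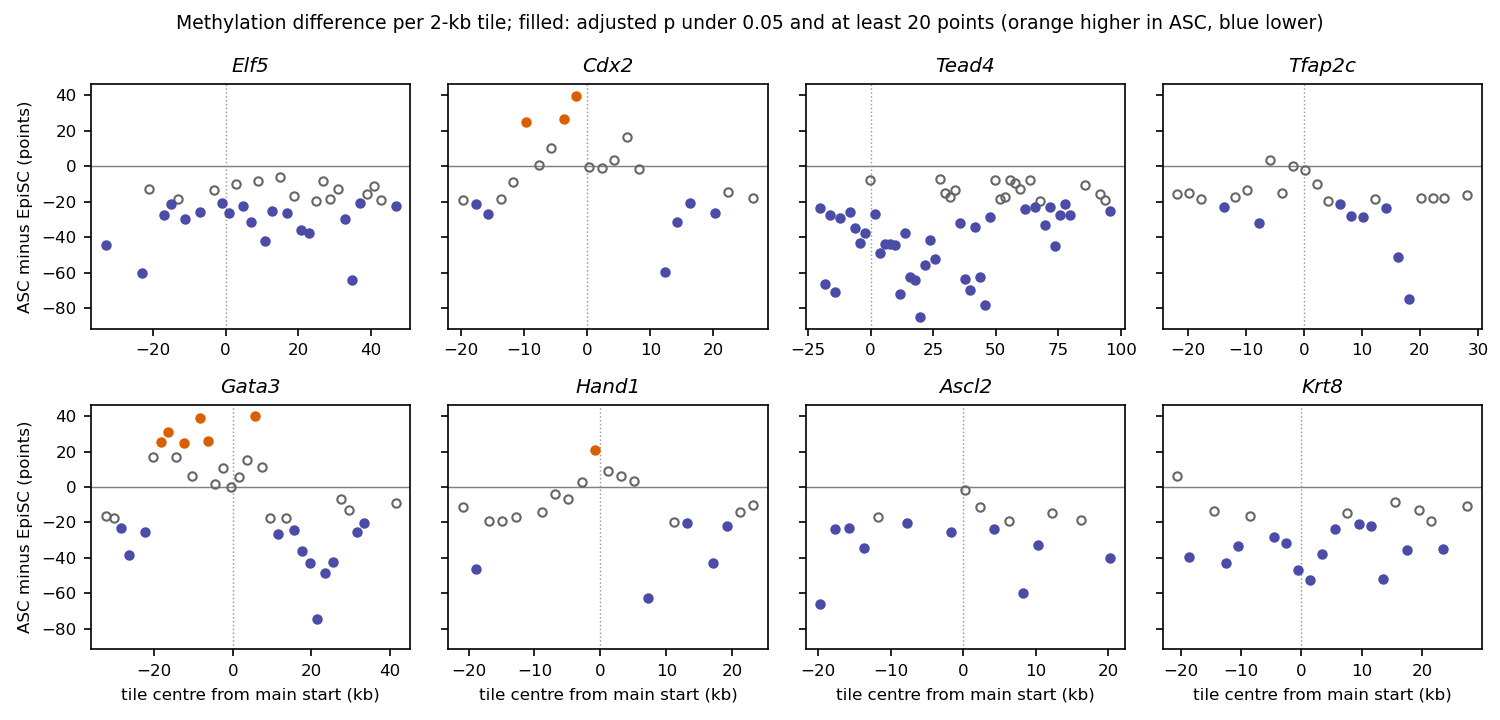
The difference in methylation level between ASCs and EpiSCs (percentage points) is plotted for each tested 2-kb tile against the distance of its centre from the main start (kb). Filled points are called, and the 10 orange points higher in ASCs belong to Cdx2, Gata3 and Hand1, while the 112 blue points spread over all 8 genes.

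Elf5 (ENSMUSG00000027186.14, chromosome 2, 103411688 to 103450989, plus strand) was methylated over most of its length in ASCs and EpiSCs, with a mean of over 30% in every tested 2-kb tile in both. At its main start, position 103424062, the window with 26 CpG sites was at 71.2% and 72.8% in ASCs, with 17.9% and 29.9% in ESCs and 97.7% and 95.2% in EpiSCs. The 3 groups did not overlap. ASCs (72.0% ± 1.17, SD, n = 2) were 48.1 points above ESCs (23.9% ± 8.46, adjusted p = 2.57e-05) and 24.5 points below EpiSCs (96.4% ± 1.80, adjusted p = 0.000341). EpiSCs were 72.5 points above ESCs (adjusted p = 1.24e-07). This window rests on 77 to 134 observations a library.

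Among the 14377 main starts, the Elf5 level was above that of 96.3% of them in ASCs, with 96.9% in ESCs and 98.6% in EpiSCs. The 14377 are main starts with 40 or more observations in every library, so promoters with fewer observations, such as many with few CpG sites, have no place in this order. Its CpG count is that of a promoter of low to middle density: the 6 tested windows hold 14 to 28 sites with an observed over expected CpG ratio of 0.196 to 0.379. All tested starts with 21 to 40 CpG sites had a median level of 13.8% for ASCs, 3.75% for ESCs and 35.7% for EpiSCs, below Elf5 in each group. Starts with 0 to 20 sites had medians of 64.8%, 17.8% and 92.3%, close to the Elf5 levels. The 5 genes whose main promoters came nearest to Elf5 over the 6 libraries were Slc5a10, Chrm4, Krt72, Calr4 and Cmtm1, at Euclidean distances of 3.67 to 7.09 percentage points among 14376 compared.

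The other tested starts of Elf5 followed the same order of groups. At 103424828 and 103446879 both ASCs and EpiSCs were lower than at the main start. The first start, 103411688, was at 78.1% and 75.3% in ASCs, against 26.6% and 11.1% in ESCs and 94.0% and 93.8% in EpiSCs. Here ASCs passed the p threshold against EpiSCs (adjusted p = 0.00872) but lay only 17.2 points below, so the window was not called. The start at 103424828 was at 51.5% and 56.2% in ASCs, with 10.3% and 8.14% in ESCs and 87.4% and 82.5% in EpiSCs. At 31.1 points (adjusted p = 0.000214) its distance from ASCs to EpiSCs was larger than at the main start. The non-coding start at 103446879 was at 51.1% and 46.7% in ASCs, against 15.6% and 30.9% in ESCs and 79.3% and 83.6% in EpiSCs. Its difference of 25.6 points between ASCs and ESCs (adjusted p = 0.0155) lost the call when a library was left out (ASC replicate 1, 23.4 points, ASC replicate 2, 27.8, ESC replicate 1, 18.0, or either EpiSC library, 25.6), and with limma on M values (adjusted p = 0.0506). Its difference of 32.6 points between ASCs and EpiSCs lost the call without EpiSC replicate 2 (30.4). The start 103411713 shares most of its window with the first start, and 103424126 with the main start. The former was at 78.3% and 75.7% in ASCs, against 26.2% and 11.4% in ESCs and 93.6% and 94.4% in EpiSCs, and the latter at 69.1% and 72.0% in ASCs, with 18.1% and 27.1% in ESCs and 97.8% and 94.5% in EpiSCs. The last start, 103448738, was too shallow to be tested, and there the ASC values lay below those of ESCs (30% and 28.6% in ASCs, against 42.9% and 35.7% in ESCs and 81.3% and 90.9% in EpiSCs).

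Along the Elf5 locus 33 of 41 tiles were tested, and in all 33 both ASCs and EpiSCs were called higher than ESCs. Over all tiles of the genome these shares were 91.1% and 96.5%. Tile means ran from 30.3% to 81.9% with a median of 70.4% in ASCs, from 5.90% to 37.3% with a median of 21% in ESCs, and from 67.7% to 97.3% with a median of 93.2% in EpiSCs. Tiles called lower in ASCs than in EpiSCs numbered 19, and 0 were higher, where 53.5% and 0.1% of all tiles were called. The smallest difference between ASCs and EpiSCs, 5.79 points (adjusted p = 0.187), lay over an exon of Elf5 centred 14939 bp after the main start. Levels there were 60.7% and 63.1% in ASCs against 74.7% and 60.7% in EpiSCs, so these groups overlapped. The largest, 64.4 points (adjusted p = 1.34e-20), lay 34939 bp after it, in an intron of Cat, the neighbouring catalase gene: 27.6% and 33.0% in ASCs, with 10% and 3.09% in ESCs and 96.0% and 93.2% in EpiSCs. The body of Elf5 as a whole was at 67.5% and 67.1% in ASCs, against 22.3% and 21% in ESCs and 89.4% and 89.6% in EpiSCs.

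**Figure D3:**
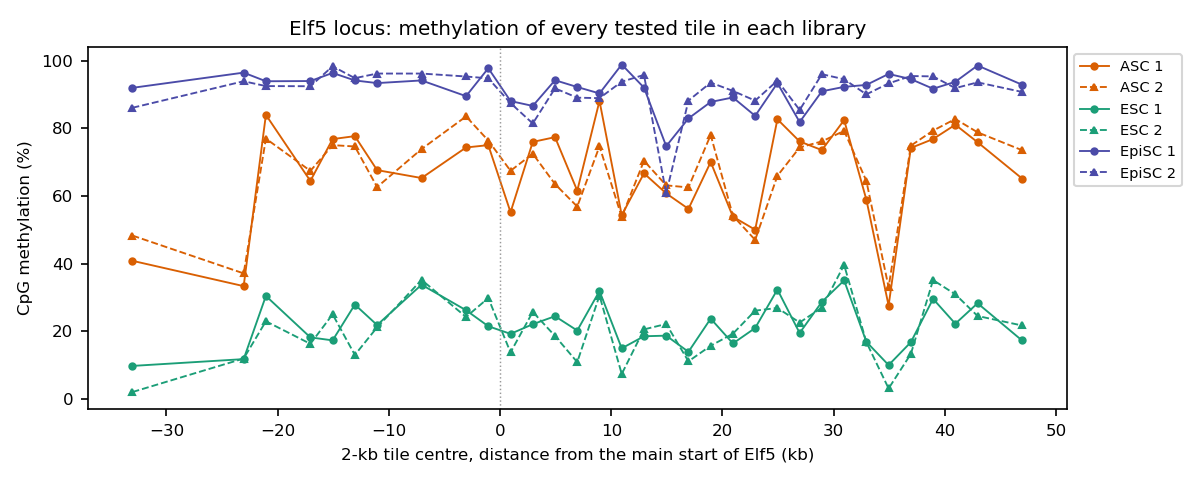
The methylation level (%) of each tested 2-kb tile of the Elf5 locus is plotted for each of the 6 libraries against its distance (kb) from the main start, with solid and dashed lines for replicates 1 and 2. The 3 groups lie in bands with medians of 70.4% (ASC), 21% (ESC) and 93.2% (EpiSC), ASCs drop furthest about 35 kb after the start, and ASCs and EpiSCs meet in the tile about 15 kb after it.

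In bins of 500 bp, chosen for description after the profile was seen, the methylation of Elf5 was interrupted in places. The bin centred 750 bp after it was at 17.9% of 28 observations in ASCs, 6.45% of 62 in ESCs and 56.3% of 64 in EpiSCs. The bins before and after it were at 54.9% and 74.0% in ASCs and at 96.8% and 94.1% in EpiSCs. A deeper interruption lay inside the gene, in the bin centred 15750 bp after the main start, at 1.35% of 74 observations in ASCs, 0% of 80 in ESCs and 23.6% of 127 in EpiSCs. It falls in the tile with the smallest difference between ASCs and EpiSCs. No stretch of bins that reached the start itself stayed under 20% in ASCs or EpiSCs. Single CpG sites of the printed Elf5 bases had 0 to 12 reads over both ASC libraries and are too shallow to be ordered.

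**Figure D4:**
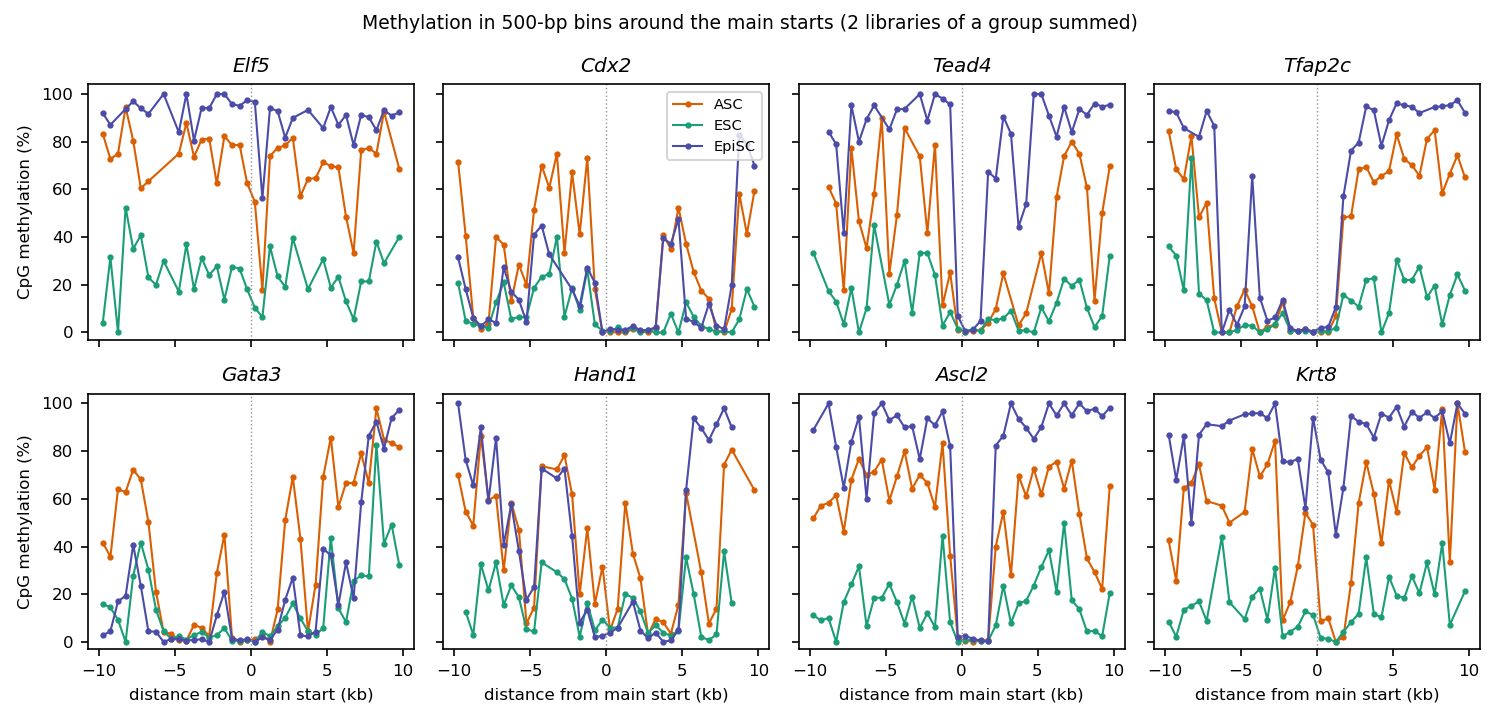
The methylation level (%) in bins of 500 bp is plotted from 10 kb before to 10 kb after the main start of each gene, with both libraries of a group summed and bins with under 10 observations left out. Elf5 has no unmethylated stretch at its start, whereas Cdx2, Tead4, Tfap2c, Gata3 and Ascl2 fall to near 0 in all 3 groups, and Krt8 falls in ASCs and ESCs but stays above 40% in EpiSCs.

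Tead4 (ENSMUSG00000030353.15, chromosome 6, 128224288 to 128300823, minus strand), the DNA-binding partner of YAP and TAZ, had low levels before its main start and a wide gap between ASCs and EpiSCs further in. The study gave Tead4, Tfap2c and Eomes as examples of genes near regions that in these samples were low in ASCs, so their direction here is no independent evidence. The window of the main start, 128300813, with 40 CpG sites and the same reads as that of the start 128300823, was at 16.1% and 7.34% in ASCs, with 3.72% and 3.2% in ESCs and 29.1% and 29.4% in EpiSCs. EpiSCs were 25.8 points above ESCs (adjusted p = 2.37e-06). ASCs were 17.5 points below EpiSCs (adjusted p = 0.00141), short of the 20 points required. That difference was 21.9 points, and called, without ASC replicate 1. The printed-length stretch right before the main start was at 0% to 3.30% in every library. In bins of 500 bp the step lay between the bin centred 250 bp before the start, at 1.06% in ASCs and 6.94% in EpiSCs, and the bin centred 750 bp before it, at 25.2% and 95.6%. Within 500 bp of the start EpiSCs were 1.04 points above ESCs, and the call was lost. The start at 128300738 was at 8.84% and 3.35% in ASCs, with 2.97% and 1.06% in ESCs and 23.9% and 22.8% in EpiSCs, and only its difference of 21.3 points between EpiSCs and ESCs was called (adjusted p = 5.13e-06), and not with CpG sites of at least 5 reads only (17.0 points).

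The internal start of Tead4, 128275577, belongs to a shorter coding transcript and has 14 CpG sites. It was at 35.6% and 43.2% in ASCs, against 5.43% and 10.3% in ESCs and 97.8% and 98.4% in EpiSCs. ASCs (39.4% ± 5.44) were 58.7 points below EpiSCs (98.1% ± 0.449, adjusted p = 3.29e-06) and 31.5 points above ESCs (7.85% ± 3.43, adjusted p = 0.000134). With 7 to 23 reads a site and group, too few to order single sites, the 5 CpG sites of the printed bases were each at 28.6% to 64.3% in ASCs, 0.00% to 15.4% in ESCs and 90.9% to 100.0% in EpiSCs. No other tested start of the 8 genes had a larger distance between ASCs and EpiSCs.

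Over the Tead4 locus ASCs were lower than EpiSCs in 38 of 54 tiles and higher in 0, where 53.5% and 0.1% of all tiles were called. The median difference was 28.0 points where the median over all tiles was 20.9. The tile with the lowest value lies in an intron, 19812 bp after the main start (128280001 to 128282000). It held 0% and 5% methylation in ASCs, against 0.893% and 0.00% in ESCs and 86.6% and 88.9% in EpiSCs, a difference of 85.2 points between ASCs and EpiSCs (adjusted p = 2.52e-27). The count of 0 of 103 observations in the first ASC library allows a level of up to 2.91%. ASCs and ESCs overlapped in this tile, and EpiSCs alone were high. The smallest difference, 7.29 points (adjusted p = 0.128), was in an intron 27812 bp after the main start. The body was at 48.5% and 48.0% in ASCs, with 17.3% and 16.5% in ESCs and 74.1% and 79.6% in EpiSCs.

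Cdx2 (ENSMUSG00000029646.3, chromosome 5, 147300805 to 147307270, minus strand) encodes the homeobox factor that fixes the trophectoderm fate. Its only start, 147307270, was at 4.8% and 5.49% in ASCs, against 1.33% and 2% in ESCs and 6.13% and 5.26% in EpiSCs. No comparison at it was called, and ASCs and EpiSCs overlapped (0.555 points, adjusted p = 0.825). The gene body was also low, at 8.31% and 8.64% in ASCs, against 2.29% and 2.43% in ESCs and 3.40% and 4.25% in EpiSCs.

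Of the 21 tested Cdx2 tiles, ASCs exceeded EpiSCs by a called difference in 3 and lay below them in 6. Shares over all tiles were 0.1% and 53.5%. The 3 higher tiles were centred 1731 to 9731 bp upstream of the start. The tile centred 1731 bp before the start (147308001 to 147310000), which holds no annotated exon or intron, was at 63.0% and 57.7% in ASCs, against 21.6% and 17.2% in ESCs and 23.5% and 17.4% in EpiSCs. ASCs were 39.9 points above EpiSCs (adjusted p = 2.73e-12) and 40.9 points above ESCs, and EpiSCs and ESCs overlapped. The next tile upstream was at 68.4% and 58.5% in ASCs and at 36.5% and 37.1% in EpiSCs. A tile in an intron of Urad, 9731 bp before the start, was at 52.2% and 49.3% in ASCs and at 28.6% and 22.6% in EpiSCs. The 6 lower tiles lay further out on both sides. Upstream, the widest difference was 15731 bp before the start, over an exon of Urad, with 41.6% and 45.5% in ASCs against 73.5% and 67.3% in EpiSCs (26.9 points, adjusted p = 1.73e-09). On the other side of the gene, 12269 bp after the start, the levels were 29.1% and 35.1% in ASCs against 90.9% and 92.1% in EpiSCs, 59.4 points apart (adjusted p = 9.20e-31).

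Gata3 (ENSMUSG00000015619.10, chromosome 2, 9857078 to 9890034, minus strand) encodes a zinc-finger factor of the trophectoderm that acts beside CDX2. Its main start, 9878600, with 59 CpG sites, was under 1.5% in all 6 libraries, and no comparison was called. On both sides of this core lay starts and tiles at which ASCs were the most methylated group, and further out the usual order returned. The non-coding start at 9875399 was at 62.7% and 52.6% in ASCs, with 13.4% and 13.2% in ESCs and 14.3% and 24.5% in EpiSCs. ASCs (57.6% ± 7.10) were 38.3 points above EpiSCs (19.4% ± 7.22, adjusted p = 0.000288) and 44.4 points above ESCs (13.3% ± 0.173, adjusted p = 7.40e-05), with no overlap.

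The non-coding start at 9887784, before the core, was at 38.5% and 32.7% in ASCs, against 13.6% and 16.7% in ESCs and 7.55% and 2.08% in EpiSCs. ASCs were 30.8 points above EpiSCs (adjusted p = 0.000927), and EpiSCs had the lowest values. Its call against ESCs (20.5 points, adjusted p = 0.0202) was lost without either ASC library (17.6 and 23.3 points) and without either ESC library (18.9 and 22.0), and with limma on M values (adjusted p = 0.0773). The non-coding start at 9873672 was at 29.0% and 29.9% in ASCs, with 2.96% and 6.36% in ESCs and 10.3% and 7.33% in EpiSCs. ASCs were 20.6 points above EpiSCs there (adjusted p = 0.000570), which fell to 19.1 and lost the call without EpiSC replicate 2. The 2 outermost starts were not called in any comparison. At 9890034 the levels were 17.9% and 22.9% in ASCs, against 3.51% and 6.67% in ESCs and 8.47% and 14.7% in EpiSCs (ASCs 8.77 points above EpiSCs, adjusted p = 0.0926). At 9890002 they were 15% and 19.2% in ASCs, with 3.74% and 4% in ESCs and 8.41% and 15.9% in EpiSCs, so that ASCs and EpiSCs overlapped (4.96 points, adjusted p = 0.307).

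Of the 34 tested Gata3 tiles, ASCs exceeded EpiSCs by a called difference in 6 and lay below them in 12, where 0.1% and 53.5% of all tiles were called. The median difference was -10.9 points. The 6 higher tiles had centres between 5599 bp after and 18401 bp before the main start. The widest difference, 39.9 points (adjusted p = 6.91e-10), was in the tile of an exon 5599 bp after the start: 64.1% and 63.4% in ASCs, against 11.2% and 16.9% in ESCs and 19.3% and 28.3% in EpiSCs. In the tile centred 8401 bp before the start, over exons of Gata3 and of the non-coding gene 9230102O04Rik, ASCs were at 52.9% and 58.8%, ESCs at 14.0% and 11.8% and EpiSCs at 20% and 14.3%. In the tile 6401 bp before it EpiSCs were below ESCs, with 2.52% and 5.56% against 17.9% and 20.1%, while ASCs were at 29.0% and 30.5%. That last difference between EpiSCs and ESCs was not called. At the 3′ end of the gene ASCs were again below EpiSCs, with 21.6% and 21.3% in ASCs against 96.5% and 95.2% in EpiSCs (74.3 points, adjusted p = 4.79e-23). The same held upstream, 26401 bp before the start, with 58.6% and 41.3% in ASCs against 85.7% and 91.1% in EpiSCs (38.5 points, adjusted p = 3.40e-06).

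Tfap2c (ENSMUSG00000028640.11, chromosome 2, 172549593 to 172558622, plus strand) encodes the AP-2 gamma factor of trophoblast and germ cells. Its 6 starts (172549593, 172550653, 172550764, 172550782, 172550991 and 172552116) hold 61 to 81 CpG sites, and no library exceeded 5.63% at any of them. At the main start, 172550782, the levels were 0.637% and 0.870% in ASCs, with 0.00% and 1.15% in ESCs and 1.83% and 0.364% in EpiSCs, and no comparison was called. The count of 0 of 290 observations in ESC replicate 1 allows a level of up to 1.03%. The stretch under 20% around the main start was 8.5 kb wide in ASCs and 5.5 kb in EpiSCs, and at a limit of 10%, added after the data were seen, it was 3.5 and 3.0 kb. At 20% the EpiSC stretch ended upstream at the bin centred 4250 bp before the start, at 65.6%. The EpiSC bins centred 4750 to 6250 bp before the start were again low, at 0% to 11.0% from 15 to 383 observations. The lowest value of ASCs against EpiSCs lay 18219 bp after the main start. That tile was at 15.5% and 19% in ASCs, against 1.79% and 0.855% in ESCs and 95.1% and 89.2% in EpiSCs, 74.9 points apart (adjusted p = 5.84e-29). In all, 8 of 24 tiles were lower in ASCs than in EpiSCs and 0 higher, where 53.5% and 0.1% of all tiles were called. The highest value, 5781 bp before the main start, was at 15.4% and 9.48% in ASCs and at 12.4% and 5.77% in EpiSCs (3.39 points, adjusted p = 0.225).

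Hand1 (ENSMUSG00000037335.13, chromosome 11, 57828705 to 57832818, minus strand), a basic helix-loop-helix factor needed for giant cells and also made in mesoderm, had its highest methylation levels in ASCs at both of its starts. The study reports Hand1 RNA as upregulated in ASCs over ESCs, and RNA was not measured here. The main start, 57832147, was at 19.1% and 17.1% in ASCs, with 10.1% and 4.35% in ESCs and 2.21% and 2.55% in EpiSCs. ASCs did not overlap with either group, but the difference of 15.7 points from EpiSCs (adjusted p = 0.000420) stayed under the required size. The difference of 10.9 points from ESCs ranged from 8.06 to 13.8 when a library was left out. Within 500 bp of the start ASCs were 1.5 points above ESCs and 4.42 above EpiSCs (adjusted p = 0.788 and 0.130). The first start, 57832818, with 41 CpG sites, was at 29.6% and 25.5% in ASCs, against 7.66% and 6.69% in ESCs and 4.94% and 6.18% in EpiSCs. ASCs (27.5% ± 2.87) were 22.0 points above EpiSCs (5.56% ± 0.873, adjusted p = 1.66e-05) and 20.4 points above ESCs (7.18% ± 0.685, adjusted p = 4.75e-05). Both calls lie close to the required 20 points: without ASC replicate 1 the differences were 19.9 and 18.3 points and neither was called, and without ESC replicate 2 the second was 19.9.

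Around the main start of Hand1 the low stretch was narrower in ASCs than in EpiSCs. The stretch under 20% around the main start was 1.0 kb wide in ASCs and 7.0 kb in EpiSCs (0.5 and 2.0 kb at a limit of 10%). The tile over the starts was at 28.0% and 23.4% in ASCs, with 8.82% and 5.31% in ESCs and 4.39% and 5.19% in EpiSCs, 20.9 points between ASCs and EpiSCs (adjusted p = 1.61e-15), which was 18.6 and not called without ASC replicate 1. Against a share of 53.5% over all tiles, 5 of the 20 tested Hand1 tiles were called lower in ASCs than in EpiSCs. The lowest, 7146 bp after the main start, was at 24.0% and 29.9% against 92.2% and 87.0%.

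Ascl2 (ENSMUSG00000009248.6, chromosome 7, 142966829 to 142969264, minus strand), a basic helix-loop-helix factor of the ectoplacental cone that is imprinted in the placenta, was little methylated at both starts. At the main start, 142969264, the levels were 13.1% and 14.1% in ASCs, against 2.90% and 1.52% in ESCs and 18.3% and 16.9% in EpiSCs. The 3 groups did not overlap, yet no difference reached 20 points (ASCs against ESCs 11.4, adjusted p = 0.000866, EpiSCs against ESCs 15.4, adjusted p = 4.38e-05). With CpG sites of at least 5 reads only, ASCs were 21.8 points above ESCs, which was called, and 9.99 points above EpiSCs, which was not, so the order of ASCs and EpiSCs turned. The other start, inside the gene, was under 3.1% in all libraries, and the gene body was at 0.405% to 3.21%. Of 16 tiles 10 were lower in ASCs than in EpiSCs, where 53.5% of all tiles were called lower. The difference was smallest over the gene itself, 263 bp after the main start (1.62 points, adjusted p = 0.0139). The lowest lay 19737 bp before the main start, over an exon of Tspan32os, with 24.0% and 29.8% in ASCs, with 4.55% and 10.3% in ESCs and 93.2% and 92.8% in EpiSCs.

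Krt8 (ENSMUSG00000049382.10, chromosome 15, 101996698 to 102004482, minus strand), which pairs with KRT18 in the filaments of simple epithelium, has only 15 CpG sites in the promoter window of its start, 102004482. The window was at 39.6% and 52.5% in ASCs, against 11.1% and 9.52% in ESCs and 62.6% and 58.5% in EpiSCs. ASCs (46.0% ± 9.13) were 35.7 points above ESCs (adjusted p = 0.000149) and 14.6 points below EpiSCs (60.6% ± 2.90, adjusted p = 0.0599). The second difference depends on the window: within 500 bp of the start it was 62.2 points and was called, while that from ESCs fell to 13.7 and was not. It was also called, at 21 points, without ASC replicate 2.

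Just inside Krt8 ASCs and EpiSCs stood slightly further apart than in any other of its tiles. In a tile of the downstream flank, 13481 bp after the start, ASCs were 52.0 points below EpiSCs (42.0% against 94.0%). The tile centred 1481 bp after the start (102002001 to 102004000) was at 7.73% and 7.69% in ASCs, with 2.78% and 2.01% in ESCs and 58.1% and 62.5% in EpiSCs, so that ASCs were 52.5 points below EpiSCs (adjusted p = 2.33e-31). The stretch under 20% was 2.0 kb wide in ASCs, all of it inside the gene, and 0.5 kb at a limit of 10%, and in EpiSCs there was none at either limit. The body was at 46.2% and 44.4% in ASCs, against 15.7% and 10.9% in ESCs and 79.9% and 82.7% in EpiSCs, the widest gap of the 8 bodies between ASCs and EpiSCs (36.0 points, adjusted p = 2.54e-08). Of 22 tiles 14 were lower in ASCs than in EpiSCs and 0 higher, where 53.5% and 0.1% of all tiles were called. In the tile 20519 bp before the start ASCs were at 39.5% and 33.3% and EpiSCs at 27.8% and 32.6% (6.18 points, adjusted p = 0.148).

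Other genes of the trophoblast were taken from 4 lists, and 26 of their 38 main promoters were tested. In ASCs against EpiSCs 5 of the 26 were lower and 0 higher, where 24.6% of all main promoters were lower and 0.174% higher. The median difference was -2.41 points where that of all main promoters was -6.62. Of the stem cell factors, which include Eomes, Ets2 and Fgfr2, 10 of 10 were tested and 0 were called in that comparison. Of the Hippo pathway genes around Tead4, which include Yap1 and Lats2, 7 of 10 were tested and 0 called. Amot, Lats1 and Tead2 were too shallow to be tested, and all were lower in ASCs than in EpiSCs. Amot was at 42.9% and 40% in ASCs against 93.9% and 89.1% in EpiSCs, from 21 to 64 observations a library. Lats1 was at 68.4% and 57.1% against 100% and 92.9%, from 14 to 21. Tead2 was at 15.4% and 31.25% against 46.8% and 38.5%, from 26 to 58. Of the genes of differentiated trophoblast 4 of 12 were tested and 3 were lower in ASCs: Syna, a syncytin of the labyrinth (26.8% and 40.5% against 90.9% and 92.6%, 58.1 points, adjusted p = 3.93e-06), the X-linked homeobox gene Esx1 (13.5% and 19% against 42.3% and 61.9%) and Ovol2, a zinc-finger repressor (4.60% and 10.1% against 33.1% and 50%). The study describes an inactive X chromosome in female EpiSCs and none in female ASCs. Its part in the differences at Esx1 and at Amot, also X-linked, was not tested. Of the epithelial genes beside Krt8, 5 of 6 were tested and 2 were lower, the keratin gene Krt7 (37.1% and 30.5% against 93.3% and 94.5%, 60.1 points, adjusted p = 1.34e-07) and the E-cadherin gene Cdh1 (5.44% and 1.27% against 31.8% and 24.8%).

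Against ESCs, 2 of the 26 were higher in ASCs (Syna and Krt7) and 7 were higher in EpiSCs, the same 5 genes with Ets2 and Krt18 added, where 17.8% and 37.1% of all main promoters were called. Eomes, the partner of ELF5 and CDX2 in trophoblast stem cells, was at 1.21% and 0.806% in ASCs, with 2.46% and 1.46% in ESCs and 0.00% in both EpiSC libraries. At Elf5, with 26 CpG sites in its window where that of Eomes has 41, all 3 comparisons were called. Among the 8 genes, only Elf5 was called at its main promoter between ASCs and EpiSCs with all 6 libraries and every CpG site. Of all main promoters, 24.6% were called lower in ASCs in that comparison. Krt8 was added where the window was taken 500 bp to each side.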

How the data were processed

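Bisulfite turns unmethylated cytosine into uracil, and adaptors were added after conversion (PBAT). Per the study's methods, the authors trimmed reads with Trim Galore, aligned them to GRCm38 with Bismark 0.16.3 in PBAT mode, removed duplicates and called both strands of each CpG together with MethPipe (version not given in the sources used here). Values deposited for each CpG and library are the methylation level as a fraction and the raw read count, with no normalization. Their product was never more than 0.000115 from a whole number, and methylated counts were recovered from it.

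All 21327445 CpG positions seen on chromosomes 1 to 19 and X fell on CG in GRCm38. Promoter windows of every start and gene bodies came from GENCODE M21, and the 2-kb tiles were a fixed grid along each chromosome. Regions with 40 or more observations in each library were fitted with a quasi-binomial model over the 3 groups, with dispersions moderated by limma 3.58.1 (R 4.3.3), and p-values were adjusted over all regions of a kind by Benjamini-Hochberg. The 95% Wilson interval of a level of 50% from 40 observations is 35.2% to 64.8%. Replicates of a group differed by about the counting noise (mean chi-square 1.02 to 1.05 per site), which repeat libraries of a single culture could also give. All 6 were counted as separate samples because the labels name them as biological replicates. The members, gene lists and tests were chosen with earlier results of these data known. All starts of the 8 genes are named, with, per gene, the tiles of most positive and most negative difference between ASCs and EpiSCs (those of the other comparisons by range), listed genes called between ASCs and EpiSCs (up to 3 a direction and list) and the 5 promoters nearest to Elf5. The lambda spike-in was not analysed here.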

Additional observations from a re-analysis of the deposited data

How the results depend on the processing

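Counts are given in the order ASCs against ESCs, ASCs against EpiSCs, EpiSCs against ESCs, and stand against 12, 9 and 11 promoters of the 8 genes, 181, 122 and 191 tiles, 5, 3 and 4 bodies and 2, 5 and 7 promoters of other trophoblast genes as reported. With at least 100 observations, fewer regions were tested, and 2, 2 and 3 promoters, 52, 32 and 54 tiles and 1 other gene (ASCs against ESCs) were called. With CpG sites of at least 5 reads only, the counts were 6, 5 and 3 promoters, 91, 60 and 94 tiles and, for ASCs against EpiSCs, 3 other genes. At a required difference of 40 points they were 6 and 1 promoters and 1 and 0 bodies (ASCs against ESCs and ASCs against EpiSCs). Tiles numbered 40 (ASCs against EpiSCs) and other genes 0, 2 and 3. With no required difference, 16 and 17 promoters and 6 and 8 bodies (ASCs and ESCs against EpiSCs) passed the adjusted p. So did 199 tiles (ASCs against EpiSCs) and 7, 10 and 17 other genes. With at least 20 observations 6, 8 and 13 other genes were called. With 1 start per gene the promoter counts were 2, 1 and 3, and with windows of 500 bp to each side EpiSCs differed from ESCs at 7. The 10 tiles and 4 promoters higher in ASCs than in EpiSCs numbered 6 and 2 at 100 observations, 6 tiles at 5 reads a site, 21 tiles with no required difference, 0 and 0 at 40 points and 0 promoters with 1 start per gene. Without a single library they numbered 10 to 11 tiles and 3 to 4 promoters. All other counts stayed within 1.5 times those reported when a library was left out, thinned or tested by limma on M values or Fisher's exact test.

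Differences at main promoters that turned in sign were not called, before or after. Within 500 bp of the start they were -0.36 at Cdx2, -0.31 at Tead4 and -0.18 at Tfap2c (ASCs against ESCs) and 0.34 at Gata3 (ASCs against EpiSCs). With sites of 5 reads or more, ASCs against EpiSCs were 0.86 at Cdx2 and 9.99 at Ascl2. Without a single library, the differences at Tfap2c ranged from -0.39 to 0.75 (ASCs against ESCs), -1.07 to 0.39 (ASCs against EpiSCs) and -0.21 to 1.26 (EpiSCs against ESCs), and those at Gata3 from -0.55 to 0.71, -0.81 to 0.46 and -0.15 to 0.65. With sites of 5 reads or more Tead4 lost its call between EpiSCs and ESCs (16.0 points), Hand1 gained one between ASCs and EpiSCs (20.6) and Ascl2 between ASCs and ESCs (21.8). The cause was not tested.

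The same replicate number did not pair libraries: deviations from the group means correlated at -0.00617 to 0.00232 between same-numbered libraries. With the number as a replicate block, 12, 9 and 11 promoters, 181, 122 and 191 tiles, 5, 3 and 4 bodies and 2, 5 and 7 other genes were called, and 10 tiles and 4 promoters were higher in ASCs than in EpiSCs. With 2 libraries a group and about 3 reads a CpG, single sites cannot be ordered, and windows under 40 observations in a library were not tested.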
